A study of Mus musculus with 5 samples.

Results

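Inhibitory receptors of myeloid cells and their ligands were examined as 8 named genes, Sirpa, Cd47, Siglec1, Siglece, Cd33, Pirb, Cd200 and Cd200r1, out of 34970 gene symbols in the count table; all 8 were found by symbol. The rule is a list of gene names and uses no measured value, although the list was drawn up with earlier results of these data known. RNA-seq libraries of wild type mouse cells were compared, with 1 library in each of 5 groups and no treatment, age or sex given in the labels. PB is blood cells, labelled as plasma blood cells and described in the design text as CD45 positive; BM is bone marrow; MCC is a myeloid-like cell complex from a study of turning fibroblasts directly into macrophages; MEF is embryonic fibroblasts; iPSC is induced pluripotent stem cells. The labels do not say how MCC cells were made, how many animals or cultures went into a library or how PB was sorted.

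Myeloid cells carry surface receptors that restrain activation and phagocytosis. SIRPα, encoded by Sirpa, binds CD47, a protein found on most cells, and the contact tells a phagocyte not to engulf its neighbour. Siglecs such as those encoded by Siglece and Cd33 bind sialic acid, the sugar that caps glycans on the body's own cells, while the Siglec1 product (sialoadhesin, CD169) is a macrophage adhesion receptor. PirB binds MHC class I molecules and the neuronal protein Nogo, and the CD200 receptor restrains macrophages that meet CD200 on lymphocytes, endothelium or neurons. Some of these receptors act through a tyrosine motif in the cytoplasmic tail, the ITIM. When phosphorylated, it recruits the phosphatases SHP-1 (Ptpn6), SHP-2 (Ptpn11) and SHIP-1 (Inpp5d).

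The codons of these motifs are shown because they separate the members by how they can signal. They were read from the GENCODE M21 transcript with the longest complete coding sequence, after the most hydrophobic window of 19 residues, taken as the membrane segment. The tyrosine codon is in capitals, and residues are counted from the start methionine.
Sirpa tyrosine 440: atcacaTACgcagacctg
Sirpa tyrosine 464: acagaaTATgcaagcatt
Sirpa tyrosine 481: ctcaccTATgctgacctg
Sirpa tyrosine 505: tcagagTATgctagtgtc
Siglece tyrosine 432: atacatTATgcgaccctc
Siglece tyrosine 455: acggagTACtcagagata
Pirb tyrosine 713: agcctaTATgcttcagtg
Pirb tyrosine 794: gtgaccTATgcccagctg
Pirb tyrosine 824: agtgtaTATgctactctg
Cd200r1 tyrosine 297: aatccactcTAT
Sirpa held 3 ITIM matches and 1 more at residue 464 with threonine in the first place, Pirb held 3, and Siglece held 1 and a threonine-first match at residue 455. Cd200r1 held no ITIM but an NPxY motif, the type that binds the adaptors of the Dok family. In Cd33 there were 135 residues and 2 tyrosines after the window and no match, and in Siglec1 37 residues, 1 tyrosine and no match. The ligand Cd200 had 21 residues after the window and no match. Cd47 crosses the membrane several times, and no match followed its most hydrophobic window.

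The 250 bases before the start site were available from RefSeq (GRCm38.p6) for Pirb, Siglece, Cd33, Cd200 and Cd47, and not for Sirpa, Siglec1 and Cd200r1. The windows below are those of the receptors Pirb and Siglece and of the widely expressed ligand Cd47. Pirb and Siglece are the receptors whose windows held the most GAGGAA matches, described below. The Cd33 window is not printed, although Cd33 was above Siglece in both blood libraries. Cd33 had 364 CPM in PB and 342 in BM, and Siglece 60.8 and 103 CPM. Capitals mark GAGGAA on either strand, the core bound by PU.1, in the receptors and GGGCGG, the GC box, in Cd47.
Pirb (chr7:3720383-3720632, minus strand): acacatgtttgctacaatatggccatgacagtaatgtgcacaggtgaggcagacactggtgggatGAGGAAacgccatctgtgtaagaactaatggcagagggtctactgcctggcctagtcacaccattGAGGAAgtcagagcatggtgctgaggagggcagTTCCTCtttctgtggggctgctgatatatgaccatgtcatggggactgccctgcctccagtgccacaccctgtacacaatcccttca
Siglece (chr7:43660162-43660411, minus strand): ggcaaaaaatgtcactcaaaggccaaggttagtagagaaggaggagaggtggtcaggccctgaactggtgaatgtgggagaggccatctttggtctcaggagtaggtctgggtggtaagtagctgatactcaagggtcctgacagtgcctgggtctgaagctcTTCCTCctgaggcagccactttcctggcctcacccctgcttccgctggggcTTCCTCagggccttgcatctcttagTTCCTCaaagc
Cd47 (chr16:49855404-49855653, plus strand): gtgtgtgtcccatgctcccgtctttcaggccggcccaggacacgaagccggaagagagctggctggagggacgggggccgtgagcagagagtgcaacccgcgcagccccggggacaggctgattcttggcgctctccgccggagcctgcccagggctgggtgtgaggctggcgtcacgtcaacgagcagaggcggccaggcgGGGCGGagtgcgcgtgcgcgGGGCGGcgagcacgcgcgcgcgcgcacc
Both the Pirb and the Siglece window held GAGGAA 3 times. Of 32851 promoter windows of the same length, 23.3% held it at least once and 0.429% held it 3 times or more. The Cd33 window held it 1 time, and those of Cd47 and Cd200 did not hold it. The Cd47 window held 2 GC boxes, a motif present in 32.7% of windows, and it had 73.2% G and C and 30 CpG sites, against medians of 52.4% and 6 over all windows. The motifs searched on both strands were GAGGAA of PU.1, GGGCGG of Sp1, TTGCNNAA of C/EBP factors (in 9.56% of windows), the TATA box TATAAA (12.4%) and the ETS motif CCGGAAGT (2.88%). No matches overlapped in these windows, and the last 3 motifs had no match in any member's window. A match is a description of the letters and was not tested as a binding site.

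Total counts ran from 30078366 in PB to 47557598 in MCC, and levels are given as CPM, a gene's share of its library's reads expressed per 1000000, after scaling with TMM factors (trimmed mean of M values). With 1 library per group there is no replicate check and no p-value; values compare these libraries. Intervals in brackets are exact 95% intervals of counting error only, and sequenced reads are not independent molecules. In these bulk libraries, fewer cells of a type and less RNA per cell cannot be told apart. Marker genes fitted the labels in part: of 15 macrophage markers 12 reached 5 CPM in MCC, 12 in BM, 6 in PB, 1 in MEF and 2 in iPSC, with summed levels of 7876, 732, 1326, 15.4 and 34.1 CPM. MCC also had fibroblast markers, 10 of 10 at 5 CPM, with a sum of 30364 CPM against 23330 CPM in MEF. Neutrophil markers summed to 65109 CPM in BM, 8232 in PB and 17.4 in MCC, and B cell markers to 730, 1531 and 0.903 CPM. The library code of PB is distant from the 4 others, and PB and a batch of library making cannot be told apart.

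At 5 CPM or more stood 7 of the 8 members in PB (all but Cd200r1; 29.3% of all genes), 7 in BM (all but Cd200; 30.3%), 6 in MCC (all but Siglece and Cd200; 32.0%), and 2, Sirpa and Cd47, in each of MEF (30.5%) and iPSC (31.7%). Per kilobase of merged exons, the order in MCC was Sirpa, Pirb, Cd47, Cd200r1, Siglec1, Cd33, Siglece and Cd200.

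Sirpa, the receptor for CD47, was at a similar level in MCC and marrow, whereas its ligand gene Cd47 was lower in MCC than in either blood library. Sirpa (chr2:129592835-129632228, plus strand) had 441 CPM in MCC, 432 in BM, 324 in PB, 55.5 in MEF and 5.41 in iPSC. MCC and BM did not differ beyond counting error, with a ratio of 1.02 (0.999 to 1.04), and BM was the higher when scaled by DESeq2 size factors or total counts. MCC was 1.36-fold (1.33 to 1.39) above PB. MCC was 7.95-fold (7.62 to 8.29) above MEF and 81.5-fold (72.4 to 91.9) above iPSC. The fibroblasts themselves thus held Sirpa well above the trace level of the other receptors, in a library where the macrophage markers Adgre1, Fcgr1, Cd163, Marco, Vsig4 and Timd4 had 0 reads.

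Cd47 (chr16:49800533-49915010, plus strand) had the narrowest range of the 8 genes, at 149 CPM in MCC, 419 in BM, 258 in PB, 74.0 in MEF and 59.5 in iPSC. No library was near 0, and every neighbouring pair in the order BM, PB, MCC, MEF and iPSC differed beyond counting error, although MEF and iPSC exchanged places when libraries were scaled by total counts alone. MCC was 2.01-fold (1.93 to 2.10) above MEF and 2.82-fold (2.74 to 2.90) below BM. Set per kilobase of merged exons, the receptor level divided by the ligand level was 3.79 in MCC, 1.61 in PB, 1.32 in BM, 0.959 in MEF and 0.116 in iPSC. MCC therefore had the highest receptor to ligand ratio of these libraries, with the receptor near the marrow level and the ligand below it.

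**Figure D1:**
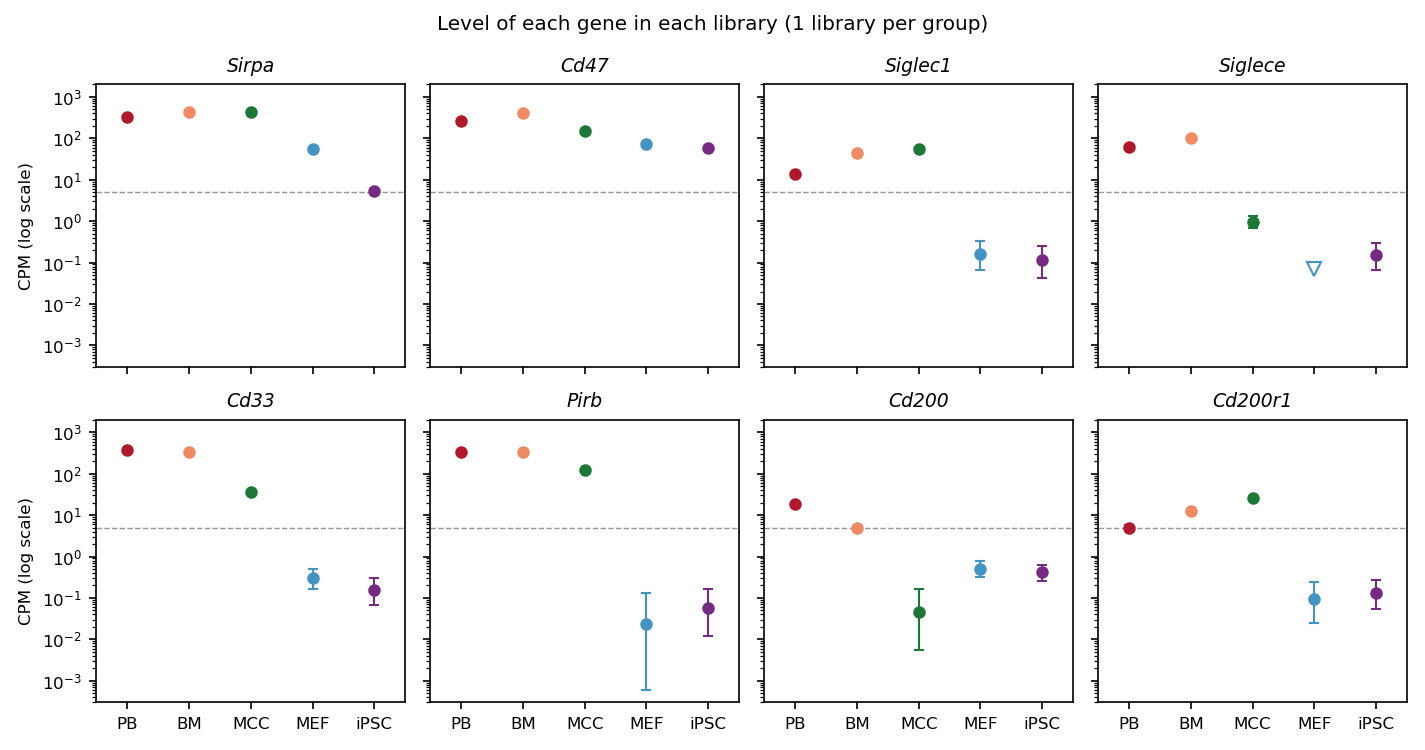
CPM on a log scale for each of the 8 genes in the PB, BM, MCC, MEF and iPSC libraries, with exact 95% counting intervals; the dashed line is 5 CPM and the open triangle marks 0 reads, drawn at the floor of 3 counts. Siglec1 and Cd200r1 were highest in MCC, Sirpa was within counting error in MCC and BM, and Cd33, Pirb and Siglece were highest in BM or PB; Cd200 was at 0.0463 CPM in MCC.

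Genes close to Sirpa and Cd47 were read from a list of relatives and partners. The activating relatives Sirpb1a, Sirpb1b and Sirpb1c stood at 32.7, 72.2 and 81.0 CPM in PB and 5.94, 22.4 and 21.9 CPM in BM. In MCC they were at 0.231, 0.671 and 1.81 CPM, from 12.2-fold (9.64 to 15.5) below BM for Sirpb1c to 33.4-fold (23.1 to 50.2) below for Sirpb1b, and all 3 had 0 reads in MEF. The SIRP genes were thus split in MCC, with Sirpa at the marrow level and the Sirpb1 genes at least 4-fold below it. No run of 50 bases of the longest Sirpa transcript occurs in a transcript of another gene. The Sirpb1 genes were not searched in this way, and any reads shared among them could have been dropped or split. Thbs1, which encodes thrombospondin, another ligand of CD47, had 165 CPM in BM and 1179 in PB, and 2078 in MCC, 4741 in MEF and 3820 in iPSC. Cd24a, whose product is a further anti-phagocytic signal, was 95.5-fold (87.9 to 104) lower in MCC than in BM, at 13.2 against 1264 CPM. Lrp1, a phagocytic receptor, had 261 CPM in BM, 1186 in MCC and 1431 in MEF. Of the 15 genes on this list, 13 reached 5 CPM in MCC or BM; by a 4-fold margin 3 were higher in MCC and 5 lower, beside 15.6% and 13.5% of all genes tested.

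The 3 Siglec genes among the members behaved differently from one another in MCC. Siglec1 (chr2:131069220-131086765, minus strand), the macrophage sialoadhesin, had 55.8 CPM in MCC, 44.8 in BM, 14.1 in PB, 0.162 in MEF and 0.115 in iPSC. It was highest in MCC, 1.24-fold (1.17 to 1.32) above BM and 3.96-fold (3.57 to 4.40) above PB, and 345-fold (167 to 858) above MEF, where 7 reads were counted. Siglece (chr7:43651070-43660161, minus strand), an ITIM-bearing receptor of neutrophils, monocytes and macrophages, had 0.972 CPM in MCC, 103 in BM, 60.8 in PB, 0 in MEF and 0.153 in iPSC. Its MCC level rested on 42 reads and was 106-fold (78.4 to 147) below BM and 62.5-fold (46.1 to 87.0) below PB. Against MEF, with 0 reads, it was 14.0-fold higher when 3 counts were set in place of 0. The lower limit of the counting interval was 10.9-fold.

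Cd33 (chr7:43524216-43544428, minus strand), whose human counterpart is a marker of myeloid cells, lay between these in MCC. It had 35.7 CPM in MCC, 342 in BM, 364 in PB, 0.301 in MEF and 0.153 in iPSC. MCC was 9.60-fold (9.11 to 10.1) below BM and 10.2-fold (9.67 to 10.8) below PB, yet 119-fold (69.2 to 223) above MEF. MEF and iPSC, with 13 and 8 reads, did not differ beyond counting error. Cd33 and Siglece lie 107 kb apart on chromosome 7. Both were lower in MCC than in marrow, and by different amounts, while Siglec1 on chromosome 2 was slightly higher. The neutrophil markers summed to 65109 CPM in BM, 8232 in PB and 17.4 in MCC, where Ly6g had 0 reads and Csf3r 10.7 CPM. Of the 12 neutrophil markers, 9 were lower in PB than in BM by a 4-fold margin and 0 higher. They did not all move together: Csf3r was at 1985 CPM in PB and 735 in BM, and Cxcr2 at 236 and 330 CPM. Cd33 was at 364 CPM in PB and 342 in BM. Siglece was at 60.8 CPM in PB and 103 in BM. The part of neutrophils in the Cd33 and Siglece difference between MCC and BM was not tested. Of 7 monocyte markers, summing to 1530 CPM in BM and 959 in MCC, 4 (Ly6c2, Ccr2, Cx3cr1 and Treml4) were lower in MCC by a 4-fold margin and 0 higher. Ly6c2 was at 822 CPM in BM and 0.185 in MCC, while F13a1 was at 408 and 901 CPM and Ace at 32.7 and 33.9 CPM.

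Of the other Siglec genes, 5 of 6 reached 1 CPM in some library. Cd22, a B cell Siglec, had a high of 231 CPM in PB, and 61.2 CPM in BM, 6.87 in MCC, 0.344 in iPSC and 0 in MEF. Siglech, a marker of plasmacytoid dendritic cells, was at 45.3 CPM in BM, 3.35 in PB and 0.139 in MCC, and Siglecf, a receptor of eosinophils, was at 10.9, 13.1 and 0.0231 CPM. Mag, a Siglec of myelin, stayed between 0 and 3.36 CPM in all 5 libraries. Siglecg, another B cell Siglec, had 8.10 CPM in MCC, 93.2 in BM, 159 in PB, 57.2 in MEF and 2.05 in iPSC. Its level in fibroblasts stood out among these genes: MEF had 2473 reads of Siglecg, while the B cell genes Ms4a1, Cd79b and Pax5 had 0 reads there. No exon base of Siglecg lies in an exon of another gene. Against BM, 4 of these 6 genes reached 5 CPM and could be counted; 4 were lower in MCC by a 4-fold margin and 0 higher, beside 13.5% and 15.6% of all genes.

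Sialic acid, the ligand of the Siglecs, was followed through a list of genes for making, carrying, attaching and removing it. Of 28 such genes in the table, 15 reached 5 CPM in MCC, 17 in BM, 18 in PB, 14 in MEF and 14 in iPSC. Nans, a synthase of sialic acid, was at 93.2 CPM in MCC and 143 in MEF, and the sialyltransferase genes St3gal1 and St3gal2 were at 127 and 101 CPM in MCC. Against MEF, 2 genes of 15 tested exceeded 4-fold in favour of MCC and 0 in favour of MEF, beside 8.05% and 2.71% of all genes: St6gal1, which makes the linkage bound by CD22, at 5.97-fold (5.29 to 6.77), and St8sia4, a polysialyltransferase, at 48.7-fold (24.5 to 114). The other genes tested were within 4-fold of the fibroblasts, as were most of all genes tested. The rest of the 28 genes were below 5 CPM in both libraries and were not counted. Against BM, 1 of 17 was higher and 4 were lower, beside 15.6% and 13.5% of all genes, among them St3gal5, the synthase of the ganglioside GM3, at 9.998 against 233 CPM. Cmah, which makes the hydroxylated sialic acid that mouse CD22 prefers, had 8.52 CPM in MCC and 8.56 in MEF, against 387 in PB and 52.2 in BM.

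Pirb was present in MCC at an intermediate level and close to absent in MEF and iPSC. Pirb (chr7:3711409-3720391, minus strand) had 123 CPM in MCC, 334 in BM, 328 in PB, 0.0231 in MEF and 0.0574 in iPSC. PB and BM did not differ beyond counting error, with a ratio of 0.983 (0.958 to 1.01), and MCC stood at 0.368 (0.357 to 0.380) of the BM level. Against iPSC, with 3 reads, MCC was 2142-fold (733 to 10390) higher, and against MEF, with 1 read, 5317-fold (954 to 210044) higher. With counts under 3 raised to 3, as in the size rule and the plot of all genes, the ratio to MEF was 1772. Pirb is one of a set of near-identical genes: 37.3% of the 50-base runs in its transcript occur in transcripts of other genes, led by Gm14548 and Pira2. Its count is therefore uncertain, since reads from the shared parts could have been dropped or split.

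Pira2 and Lilra6, activating relatives of Pirb, were lower in MCC, relative to marrow, than Pirb itself. Pira2 was at 2.57 CPM in MCC and 26.7 in BM, and Lilra6 at 0.393 and 55.1 CPM, which is 10.4-fold (8.53 to 12.7) and 140-fold (87.2 to 241) lower. Lilra5, a further relative, had 12 reads in MCC and 33 in BM, at 0.278 and 0.810 CPM. With so few reads it could not be ranked against Pirb. The Pira2 transcript shares runs of bases with that of Pirb, so its count is uncertain too. Of 21 genes fixed for this list of relatives and ligands, 12 were in the count table. Lilrb4a, an inhibitory relative, was at 19.2 CPM in MCC, 157 in BM and 475 in PB. The ligands of PirB were abundant: H2-K1 and H2-D1, the class I heavy chains, were at 640 and 1087 CPM in MCC. They exceeded their MEF levels 6.02-fold (5.83 to 6.21) and 9.97-fold (9.68 to 10.3). B2m, their light chain, was 4.06-fold (3.99 to 4.13) above MEF at 1655 CPM. Rtn4, which encodes Nogo, had 110 CPM in BM, 121 in PB, 362 in MCC, 775 in MEF and 333 in iPSC. Receptor and class I ligand genes were thus both higher in MCC than in fibroblasts, and Rtn4 was not. Of the 8 genes of this list that reached 5 CPM in MCC or BM, 1 was higher and 3 were lower in MCC by a 4-fold margin, beside 15.6% and 13.5% of all genes.

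The CD200 pair was one-sided in MCC, where the receptor gene had its highest level and the ligand gene its lowest. Cd200r1 (chr16:44765736-44794978, plus strand) had 26.5 CPM in MCC, 12.9 in BM, 4.85 in PB, 0.0925 in MEF and 0.134 in iPSC. MCC was 2.05-fold (1.85 to 2.28) above BM, 5.46-fold (4.59 to 6.53) above PB and 287-fold (112 to 1053) above MEF. Cd200 (chr16:45382135-45409053, minus strand) had 0.0463 CPM in MCC, 4.84 in BM, 19.1 in PB, 0.509 in MEF and 0.421 in iPSC. Cd200 had 2 reads in MCC, against 197 in BM and 22 in each of MEF and iPSC. PB and BM had ratios to MCC of 412 (114 to 3412) and 104 (28.5 to 869), and MEF and iPSC did not differ beyond counting error. MEF and MCC were both under 1 CPM.

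In PB the ligand was above the receptor, with Cd200 at 5.75 and Cd200r1 at 1.45 CPM per kilobase of merged exons, a receptor to ligand ratio of 0.252. The ratio was 0.180 in MEF and 0.316 in iPSC, where both genes had 22 reads or fewer. In BM the receptor was the higher, at 3.86 against 1.46 CPM per kilobase, and in MCC it was at 7.92 against 0.0139. B cell markers moved with Cd200, at sums of 1531 CPM in PB, 730 in BM and 0.903 in MCC, and T and NK cell markers at 1032, 183 and 4.03 CPM; their part in the Cd200 difference was not tested. The 8 endothelial markers did not move together: Pecam1, which blood cells also express, was at 136 CPM in PB, 61.8 in BM and 0.370 in MCC, Tie1 and Emcn had 0 reads in MCC, and Tek was at 0, 0.761 and 7.41 CPM. The relatives of the receptor were low throughout. Cd200r4 was at 3.98 CPM in PB, 1.84 in BM and 3.45 in MCC, and Cd200r3, expressed by basophils and mast cells, at 1.77, 5.62 and 0.0463 CPM. Of the 50-base runs in the Cd200r1 transcript, 2.17% occur in another gene, led by Cd200r4.

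**Figure D2:**
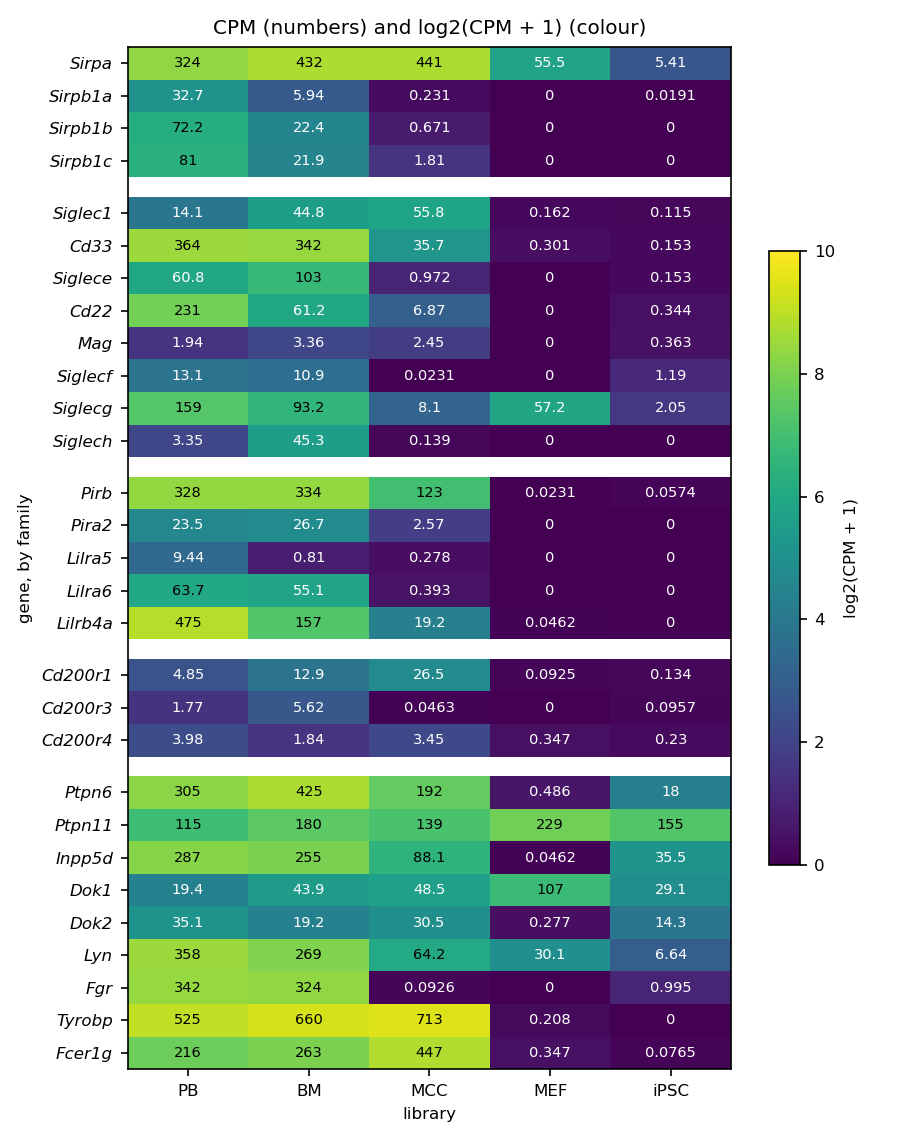
CPM (numbers) and log2(CPM + 1) (colour) of the SIRP, Siglec, PIR and LILR, and CD200 receptor genes and of signalling genes in the 5 libraries; 0 stands for levels under 0.01 CPM. Within each receptor family the MCC column is carried by 1 or a few genes, such as Sirpa at 441 CPM beside Sirpb1a at 0.231 CPM.

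Counts over the members follow for each pair of libraries. The size rule asked for a CPM ratio of 4 or more, after raising counts under 3 to 3, and for 5 CPM or more on the higher side. Against MEF, 6 of the 8 members reached 5 CPM in either library; 5 were higher in MCC and 0 lower, while 8.05% of 11720 genes tested were higher and 2.71% lower. Their median log2 ratio was 7.53, beside −0.01 over all genes tested. Siglece and Cd200 were below 5 CPM in both MCC and MEF and were not counted. Since 4 of the members counted entered through their MCC level alone, the count describes them and is no support for a shared change.

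Against iPSC, 5 of 6 members were higher in MCC and 0 lower, with 11.3% of 12442 genes higher and 9.77% lower, and a median log2 ratio of 7.75 beside 0.14 over all genes. Here too, 4 members were counted through their MCC level alone. Scaling by total counts moved the share of higher among all genes called in this comparison from 53.7% to 41.9% (1161 higher and 1613 lower) and left the count of members at 5. Against BM, 0 of 7 members were higher and 2, Siglece and Cd33, lower, with 15.6% of 12427 genes higher and 13.5% lower. The members' median log2 ratio to BM was −1.44, beside 0.11 over all genes, and ran from −6.73 for Siglece to 1.04 for Cd200r1.

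Against PB, 1 of 8 members, Cd200r1, was higher and 3, Siglece, Cd33 and Cd200, were lower, with 21.5% of 12545 genes higher and 15.4% lower; the median was −1.11 beside 0.38. With DESeq2 size factors the calls over all genes turned from 2699 higher and 1927 lower to 2256 and 2319, and the counts of members were 1 and 3 as before. Siglec1 fell just short of the size rule at 3.96-fold. Between the native libraries, 0 of 8 members passed the rule in either direction, with 6.32% of 11377 genes higher in PB and 9.68% lower. Cd200 was nearest to it, 3.95-fold (3.35 to 4.66) higher in PB, and it passed with 1 other scaling. All comparisons with MCC share that 1 library, so that they are not independent of one another.

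**Figure D3:**
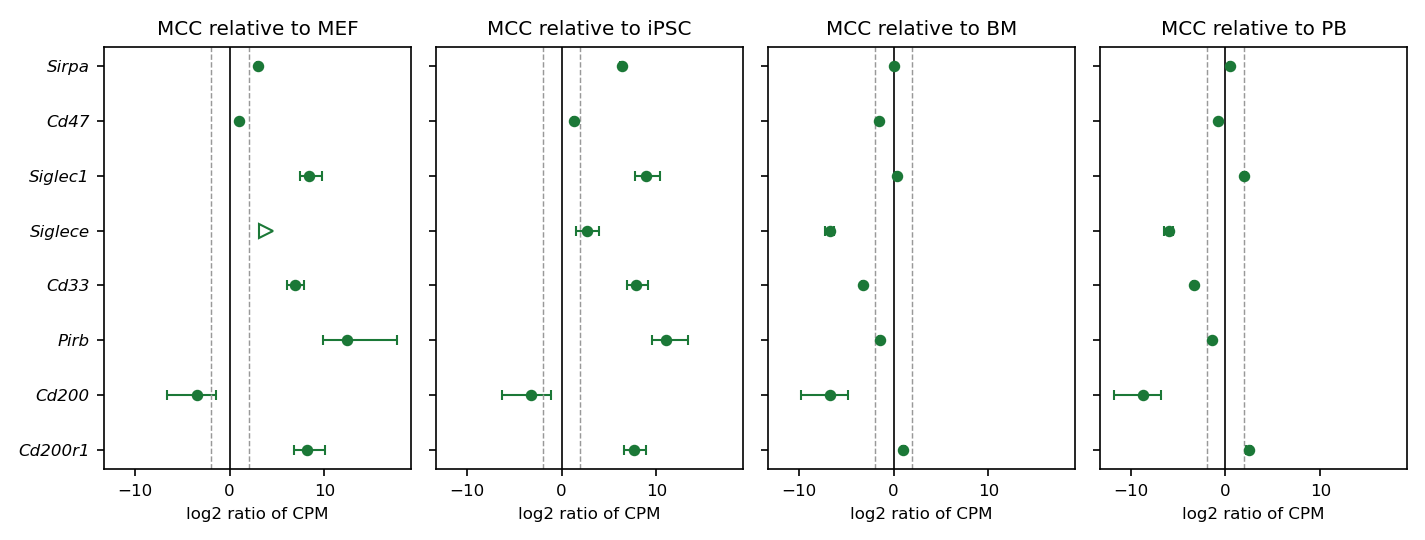
The log2 ratio of CPM in MCC to that in MEF, iPSC, BM and PB for each gene, with exact 95% counting intervals; dashed lines mark 4-fold and the open triangle is a lower bound against 0 reads. Sirpa, Siglec1, Cd33, Pirb and Cd200r1 lie right of the lines against MEF and iPSC. So does Siglece, which was below 5 CPM in MCC, MEF and iPSC. Siglece and Cd33 lie left of the lines against BM and PB, and Cd200r1 lies right of them against PB. Cd200 lies left of them against each library.

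**Figure D4:**
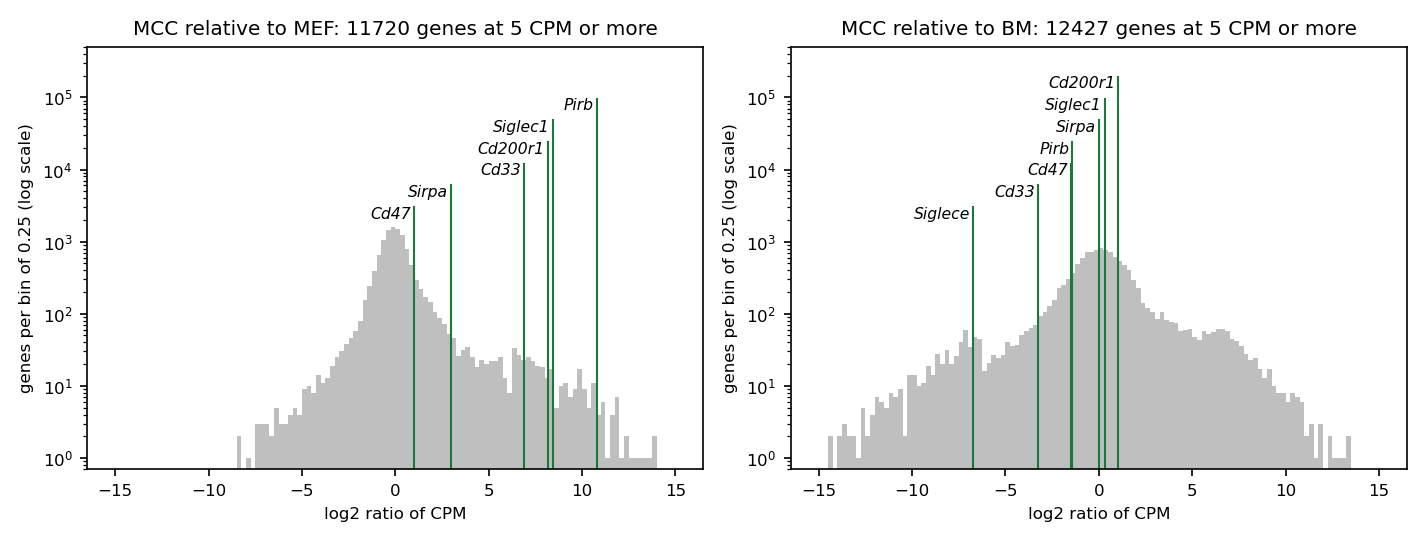
Distribution of the log2 ratio of CPM in MCC to MEF (11720 genes) and in MCC to BM (12427 genes) over all genes at 5 CPM or more in either library, with counts under 3 set to 3 and the members at vertical lines. Pirb lies at 10.79 against MEF and −1.44 against BM, and Siglece at −6.73 against BM.

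The enzymes and adaptors through which these receptors act were mostly present in MCC. Of 20 such genes, 19 reached 5 CPM in MCC, 20 in BM, 20 in PB, 13 in MEF and 16 in iPSC. Ptpn6, the SHP-1 phosphatase of blood cells, was at 192 CPM in MCC, 425 in BM, 305 in PB, 0.486 in MEF and 18.0 in iPSC, and was 395-fold (258 to 638) higher in MCC than in MEF. Ptpn11, the widely expressed SHP-2, was at 139 CPM in MCC and 229 in MEF. Inpp5d, the SHIP-1 lipid phosphatase, chosen here after its values were seen, was at 88.1 CPM in MCC, 255 in BM and 0.0462 in MEF. Grb2 and Skap2, adaptor genes, were at 150 and 143 CPM in MCC. By a 4-fold margin, 8 of 19 tested were higher in MCC than in MEF and 0 lower, beside 8.05% and 2.71% of all genes. Those below 5 CPM in MEF entered through their MCC level alone, so the count is a description only. Against BM 1 of 20 was higher and 6 lower, beside 15.6% and 13.5%.

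Lyn and Fgr, Src family kinases of the type that phosphorylates ITIMs, were lower in MCC than in marrow, and by unequal amounts; these genes were chosen with their values known. Lyn was at 64.2 CPM in MCC, 269 in BM and 358 in PB. Fgr had 4 reads in MCC, 0.0926 CPM against 324 in BM and 342 in PB. Cbl, a ubiquitin ligase, was at 51.6 CPM in MCC and 529 in PB. Of the adaptors and kinase used by activating receptors, Tyrobp was at 713 CPM in MCC and 660 in BM, Fcer1g at 447 and 263 CPM, and Syk at 70.2 and 602 CPM. The third adaptor of this list, Hcst, was at 4.74 CPM in MCC and 34.9 in BM. Tyrobp and Fcer1g were thus at or above the marrow level, Hcst was below it, and the kinase Syk was 8.58-fold (8.26 to 8.91) below it.

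Other inhibitory or regulatory receptors of myeloid cells formed a list of 23 genes, of which 12 reached 5 CPM in MCC, 20 in BM, 22 in PB, 2 in MEF and 2 in iPSC. Fcgr2b, the inhibitory Fc receptor, was at 657 CPM in MCC. It was 6.85-fold (6.63 to 7.09) above BM and 5.29-fold (5.11 to 5.48) above PB. Trem2, which signals through Tyrobp and is not itself an ITIM receptor, was at 301 CPM in MCC, 10.8 in BM and 5.59 in PB, and Clec2d, a lectin-like ligand of NK cell receptors, was at 136, 46.6 and 23.0 CPM. Vsir, which encodes the checkpoint protein VISTA, was at 112 CPM in MCC, 786 in BM and 392 in PB. Ceacam1 was at 3.17 CPM in MCC, 249 in BM and 13.9 in iPSC. Set against BM by a 4-fold margin, 2 of 20 were higher in MCC and 11 lower, beside 15.6% and 13.5% of all genes. Against MEF 11 of 12 were higher and 0 lower, beside 8.05% and 2.71%. Only 2 genes of the list reached 5 CPM in MEF, so most of those counted entered through their MCC level alone. The count against MEF therefore describes these genes and is no support for a shared change.

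For each member, the 3 genes most like it were found by the distance between log2(CPM + 1) values over the 5 libraries, each centred on its own mean, among 12777 genes. Pirb was nearest to Cd52 (distance 0.301), Hcls1 (0.301) and Csf2rb (0.469), and Siglece to Pilra (0.475), Mgam (0.597) and Fpr1 (0.609). Pilra, an ITIM receptor, had 86.2 CPM in PB, 105 in BM and 1.18 in MCC, the pattern of Siglece. Cd33 was nearest to Wdfy4 (0.668), Gda (0.745) and Dok3 (0.855), Siglec1 to Cfp (0.734), Slc25a45 (1.20) and Susd3 (1.20), and Cd47 to Arsg (0.243), Sirt7 (0.253) and Stat5a (0.268). Sirpa and Cd200r1 had no gene closer than 0.957 and 1.15, those of Ifi47 and Irgm2. Cd200 was nearest to Rabgap1l (0.418), Klra7 (0.423) and Endou (0.460). Between members, the closest pair was Siglec1 and Cd200r1 at 1.55, followed by Cd33 and Pirb at 1.73. With 5 libraries these distances are a description only.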

How the data were processed

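Polyadenylated RNA was sequenced after Trizol extraction, per the labels' protocols. The authors deposited whole-number read counts per gene symbol, not normalized; STAR, featureCounts and mm10 are named in the submitters' processing notes, while for versions, annotation, strand setting, filters and multiply mapped reads the labels say nothing. Each column was matched to its library by the library code, and 0 value columns were left unused.

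From the deposited counts, TMM factors were computed over 5 libraries with edgeR 4.0.16 (R 4.3.3), and levels, exact Poisson intervals and exact conditional binomial (Clopper-Pearson) ratio intervals at 95% with Python 3.11.15, numpy 2.4.6, pandas 2.3.3 and scipy 1.17.1; plots used matplotlib 3.10.9. The floor of 3 counts was between 0.0574 and 0.100 CPM. The calculation was tested on simulated data. No test was possible with 1 library per group. Alternatives were DESeq2 1.42.0 size factors, total counts, TMM without PB, removal of 72 genes (the 10 most abundant of each library, mitochondrial genes and haemoglobins) before scaling, no minimum or 20 CPM, the counting bound, and 2-fold.

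Positions, merged exons and transcripts were from GENCODE M21 on mm10 (GRCm38), and no exon base of a member lies in another gene. The authors' annotation may differ.

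The members and lists were chosen with earlier results of these data known. The genes named were all members, measured genes of the Siglec, Sirpb1 and CD200 receptor families, the 3 genes of each other list highest in MCC and the 1 highest in each other library, 2 markers per list, and the 3 genes nearest to each member; others are said to be chosen after their values were seen, as were the marker and relative genes named beside a member.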

Additional observations from a re-analysis of the deposited data

How the results depend on the processing

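No paired analysis was possible because each group has 1 library. Against MCC the counts of members were the same under DESeq2 size factors, total counts, TMM without PB and a minimum of 20 CPM to within 1.5 times. Removing abundant genes before scaling brought Cd200, at 4.84 CPM in BM, over the minimum, and 3 members were then lower in MCC than in BM. Without a minimum level, 1 member, Cd200, was counted lower in MCC than in MEF and 1 than in iPSC. At 2-fold, 1 member was higher in MCC than in BM and 4 were lower, 2 were higher in MCC than in PB, and 1 was higher and 2 were lower in PB than in BM. With DESeq2 size factors 1 member was higher in PB than in BM. Scaling by total counts kept the order of libraries for 5 members; Sirpa, Cd47 and Cd200 each exchanged a pair of neighbours. With DESeq2 size factors Sirpa and Pirb did. Over all genes, those higher and lower by the rule numbered 1851 and 885 for MCC against MEF, 3368 and 3666 for MCC against BM, 4219 and 4869 for MCC against PB, 2451 and 3242 for MCC against iPSC, 2169 and 2083 for PB against BM without a minimum level, 589 and 162 for MCC against MEF, 1243 and 1186 for MCC against BM, 1798 and 1317 for MCC against PB, 978 and 613 for MCC against iPSC, 421 and 700 for PB against BM at 20 CPM, and 1773 and 1187 for MCC against MEF, 3636 and 3088 for MCC against BM, 4839 and 3256 for MCC against PB, 3024 and 2389 for MCC against iPSC, 1824 and 2665 for PB against BM at 2-fold; these follow from more or fewer genes passing the rule. Of the members' ratios recomputed with other scalings (40 with each, 24 for TMM without PB), 0 changed direction among those whose interval left out 1; DESeq2 size factors moved ratios by factors of 0.823 to 1.14 and total counts by 0.761 to 0.994. The median log2 ratio of all genes shifted by over 0.1 with total counts for MCC against BM (−0.14), PB (−0.13) and iPSC (−0.39), and with DESeq2 size factors for MCC against PB (−0.28) and PB against BM (0.18). With 2 reads of Cd200 in MCC and 1 read of Pirb in MEF, depth sets only the order of magnitude of those ratios.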
